A study of Mus musculus with 56 samples.

Results

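Follicular-helper-like genes were followed in 7 sorted groups of fetus- and graft-specific CD8+ T cells (T_FGS) of C57BL/6 female mice. The members were named by symbol: Il21, Cxcl13, Cxcr5, Bcl6, Pou2af1, Sh2d1a, Sox4 and Ascl2. Each of the 8 symbols matched 1 Ensembl identifier among the 55359 rows of the gene count table, so 8 of 8 members were found, and 7 of them passed the filter on low counts that left 19659 genes for testing. Ascl2 had no count in any of the 56 libraries and was not tested.

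T_FGS were endogenous CD8+ T cells that bound OVA:Kb tetramers, taken from the spleen and lymph nodes of single mice, and each library was made from 200 sorted cells by SmartSeq2, a full-length cDNA method without molecular identifiers. Naive mice (3 samples) had neither a graft nor a pregnancy. Mice of the N+P groups were unsensitized and carried a pregnancy sired by a 2W-OVA.BALB/c male, so that part of the offspring bore the model antigen 2W-OVA. Their cells were split into N+P C1, which was PD1- (3 samples), and N+P C5, which was PD1+CD73+ (3 samples). Sensitized mice (4 samples) had rejected a 2W-OVA.BALB/c skin graft and were taken on day 30 or later after grafting, without a pregnancy. Mice of the S+P groups had the same graft followed by the same kind of pregnancy, and their cells were split into S+P C4, which was PD1- (6 samples), S+P C5, which was PD1+CD73+ (6 samples), and S+P C7, which was PD1+CD73- (5 samples). Pregnant mice were taken on post-partum days 0 to 3, and mice were 8 to 12 weeks old when purchased. All groups shared the OVA:Kb gate, which excluded cells that carried markers of other lineages, among them CD11c, F4/80, NK1.1 and TER119. PD-1 and CD73 were used to sort the post-partum subsets only, so the levels of Pdcd1 and Nt5e, which encode them, are not findings between those subsets or between a PD1+ subset and an unsplit group.

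Follicular helper T cells (Tfh) are best known as CD4+ T cells that enter B cell follicles and help germinal centre B cells. The transcriptional repressor BCL6 directs the program, the chemokine receptor CXCR5 brings the cells towards its ligand CXCL13 in the follicle, the adaptor SAP (encoded by Sh2d1a) carries signals of SLAM family receptors during contact with B cells, and interleukin-21 acts on the B cells. POU2AF1 is a transcriptional coactivator of octamer-binding factors and is abundant in B cells, ASCL2 is a transcription factor that raises CXCR5, and SOX4 is a transcription factor that has been tied to CXCL13 production in T cells. Subsets of CD8+ T cells that carry CXCR5 have been described in chronic infection.

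The 250 bases upstream of the canonical start of Il21, Cxcl13 and Sox4 are given first because these members were counted in some groups and were at or near 0 in others. The sequences were read 5′ to 3′ on the coding strand from GRCm39, the build of the count table, and capitals mark the NFAT core GGAAA and the E-box CAGCTG on either strand. The last 20 bases of the Il21 window lie in an exon of another annotated transcript, and the other windows hold no annotated exon.
Il21, chr3:37286768-37287017, minus strand: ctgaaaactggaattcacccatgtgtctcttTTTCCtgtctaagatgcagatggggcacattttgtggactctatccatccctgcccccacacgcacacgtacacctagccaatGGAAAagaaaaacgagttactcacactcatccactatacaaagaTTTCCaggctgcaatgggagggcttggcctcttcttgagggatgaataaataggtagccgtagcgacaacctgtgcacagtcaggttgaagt
Cxcl13, chr5:96104560-96104809, plus strand: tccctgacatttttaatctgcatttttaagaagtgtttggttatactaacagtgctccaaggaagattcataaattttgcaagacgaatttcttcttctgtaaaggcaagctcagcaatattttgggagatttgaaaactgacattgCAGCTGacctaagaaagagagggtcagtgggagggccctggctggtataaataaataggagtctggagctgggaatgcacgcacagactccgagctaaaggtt
Sox4, chr13:29137697-29137946, minus strand: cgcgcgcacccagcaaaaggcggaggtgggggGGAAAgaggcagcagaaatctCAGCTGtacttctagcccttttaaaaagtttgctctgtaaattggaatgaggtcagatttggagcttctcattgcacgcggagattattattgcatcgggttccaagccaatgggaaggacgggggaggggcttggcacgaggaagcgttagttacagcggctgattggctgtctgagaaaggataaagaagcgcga

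The Il21 window held 3 copies of the NFAT core, the first at position -219 from the start, and this motif occurred in 58% of the 21627 windows of protein-coding genes in the table. The Cxcl13 and Sox4 windows each held 1 E-box, a motif found in 11.9% of windows, and the Sox4 window also held 1 NFAT core. The octamer ATGCAAAT, the BCL6 motif TTCCTNGAA and the AP-1 motif TGANTCA, found in 1.5%, 1.39% and 6.19% of windows, were absent from the windows of all 8 members. These matches describe letters in the windows and carry no measurement of binding.

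Library totals lay between 6636532 and 32625243 counts, with a median of 17299849, and the summed samples between 15547934 and 54809406. Levels are given as CPM, counts scaled to a fixed library size, after TMM scaling. The floor was a total of 3 counts, worth 0.0539 to 0.298 CPM depending on the sample, and only larger counts were treated as above it. Intervals and floors cover counting error only. One column was identical in a Naive and an S+P C4 library and was left out of both groups. Another pair, labelled S+P C7 replicates 1 and 2, was nearly identical and entered as 1 library. The 6 CD8 T cell markers summed to 4489 to 8785 CPM in every sample. Cd4 was at 0 in N+P C1, N+P C5, Sensitized and S+P C5, and at most 3.71 CPM elsewhere.

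Single libraries stood apart in 3 samples. Replicates 2 and 3 of S+P C4 detected 8002 and 7436 genes and replicate 3 of the S+P C7 group 7879, where the other samples detected 12383 to 26805. The library labelled S+P C7 replicate 3 went against its label: it held 1 count of Pdcd1 (0.0467 CPM), where the other S+P C7 samples held 167 to 578 CPM. It also had summed marker levels of 15420 CPM for B cells (13 genes), 8928 for plasma cells (4 genes), 6224 for myeloid cells (7 genes) and 18800 for erythroid cells (3 genes), against at most 274.5 CPM, 620.1 CPM, 279.5 CPM and 192.9 CPM in the other S+P C7 samples. The log2 differences of Cxcr5, Bcl6 and Sh2d1a that rest on these samples are given with and without them.

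Il21 was counted in every PD1+CD73+ sample and in almost no sample of the groups taken without a pregnancy. The gene, which encodes interleukin-21, lies on chromosome 3 at 37276908 to 37286785 (GRCm39, minus strand). It reached 2.12 CPM, 37.1 CPM and 3.69 CPM in the 3 N+P C5 samples. The lowest of the 6 S+P C5 samples held 1.14 CPM, the median was 28.3 CPM and the highest was 51.4 CPM. S+P C7 held 7.695 CPM, 2.21 CPM and 15.1 CPM in replicates 1, 4 and 5 and none in replicates 3 and 6. S+P C4 held 3.05 CPM in replicate 5 and none in the other 5 samples. No count fell in the 3 N+P C1 and the 4 Sensitized samples, and a single count fell in the 3 Naive samples. Thus both PD1+CD73+ groups lay above the groups without a pregnancy with no overlap, while S+P C7 overlapped S+P C5.

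Against the floor of 3 counts per sample, the mean of Il21 in S+P C5 (28.0 ± 19.4 CPM, SD, n = 6) was at least 300-fold higher than in Sensitized. In N+P C5 (14.3 ± 19.8 CPM, SD, n = 3) it was at least 153-fold higher than in N+P C1, and the ratio to the 1 count of Naive was 1159, with an exact Poisson 95% interval of 208 to 45780 for that count. The spread among the PD1+CD73+ samples was wide, and the SD of N+P C5 exceeded its mean. Replicate 2 carried 1271 of the 1491 counts of N+P C5, so the N+P C5 bound and ratio rest mainly on that sample. The bounds and the interval cover counting error only. In bulk libraries such as these, fewer cells that express a gene and less RNA per cell cannot be told apart.

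Cxcl13, the ligand of CXCR5 (chromosome 5, 96104810 to 96108927, plus strand), was counted in 4 of 30 samples, all of them from sensitized and pregnant mice. It reached 17.2 CPM in S+P C5 replicate 1, 2.57 CPM in replicate 4 and 0.89 CPM in replicate 5, and was at 0 in the other 3 S+P C5 samples. The fourth sample was S+P C4 replicate 5 with 0.779 CPM, which was also the only S+P C4 sample with Il21. The mean in S+P C5 was 3.44 ± 6.81 CPM (SD, n = 6), at least 36.9-fold above Sensitized, 37.5-fold above S+P C7 and 42.4-fold above N+P C5 (43.2-fold above S+P C7 without its replicate 3). Replicate 1 carried 797 of the 918 counts in that group, and without it the bound against Sensitized was 7.42-fold. The 7 markers of follicular dendritic and other stromal cells, which make CXCL13 in lymph nodes, summed to 0 to 10.1 CPM in S+P C5. Ccl19, Ccl21a, Madcam1 and Pdpn had no count there, Col1a1 reached 10.1 CPM in 1 sample and Clu 1.65 CPM, and the part of such cells in Cxcl13 was not tested.

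Cxcr5, the receptor (chromosome 9, 44423083 to 44473174, minus strand), was present in every group and highest in S+P C5. The 6 S+P C5 samples ran from 83.6 CPM through a median of 210.2 CPM to 259.6 CPM. The Sensitized samples held 11.3 CPM, 41.7 CPM, 9.26 CPM and 31.2 CPM, so every S+P C5 sample lay above every Sensitized sample. S+P C7 held 56.7 CPM, 118.5 CPM, 309.7 CPM and 115 CPM in replicates 1, 4, 5 and 6, and none in replicate 3. S+P C4 was split, with 21.0 CPM, 91.7 CPM and 88.9 CPM in replicates 4 to 6 and at most 1 count in replicates 1 to 3.

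The 3 unsensitized groups overlapped for Cxcr5. Naive samples held 29.9 CPM, 12.3 CPM and 7.03 CPM, and N+P C1 samples 19.0 CPM, 41.2 CPM and 24.8 CPM. N+P C5 samples held 9.86 CPM, 89.4 CPM and 77.1 CPM. By group mean the order was S+P C5 (197 CPM), S+P C7 (120.0 CPM), N+P C5 (58.8 CPM), S+P C4 (33.6 CPM), N+P C1 (28.3 CPM), Sensitized (23.3 CPM) and Naive (16.4 CPM), and each neighbouring pair in that order overlapped. Without replicate 3 the S+P C7 mean was 150.0 CPM, and without replicates 2 and 3 the S+P C4 mean was 50.4 CPM. Some Cxcr5 exon bases (118) are shared with Bcl9l on the opposite strand, a gene counted in 55 libraries, and whether the counting used strand is not given in the sources used here.

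Bcl6, the repressor that directs the program (chromosome 16, 23783802 to 23807602, minus strand), was likewise highest by mean in S+P C5. The S+P C5 samples ran from 35.7 CPM through a median of 59.2 CPM to 83.1 CPM. The Sensitized samples held 14.05 CPM, 34.8 CPM, 17.6 CPM and 21.2 CPM, all below the lowest S+P C5 sample, but only just in the case of replicate 2. S+P C7 samples held 43.1 CPM, 124 CPM, 13.2 CPM, 53.2 CPM and 31.3 CPM in replicates 1, 3, 4, 5 and 6, and the highest of these was the library that stood apart. N+P C5 samples held 6.30 CPM, 27.8 CPM and 59.5 CPM, a range that held all Naive and Sensitized samples. Naive samples held 16.1 CPM, 8.18 CPM and 6.72 CPM and N+P C1 samples 3.22 CPM, 8.67 CPM and 7.92 CPM. S+P C4 replicates 2 and 3 had no count, and the other 4 held 15.4 to 53.0 CPM.

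Sh2d1a, which encodes the adaptor SAP (X chromosome, 41591330 to 41618207, plus strand), was the only member counted above the floor in all 30 samples. Naive samples held 62.1 CPM, 60.4 CPM and 62.9 CPM, and N+P C1 samples 67.2 CPM, 84.7 CPM and 77.2 CPM. N+P C5 samples held 95.1 CPM, 156 CPM and 163 CPM, and Sensitized samples 116 CPM, 146.5 CPM, 117 CPM and 93.6 CPM. Every N+P C5 and Sensitized sample lay above every Naive and N+P C1 sample. The 6 S+P C5 samples ran from 247 CPM through a median of 363 CPM to 609.9 CPM and did not overlap any group taken without a pregnancy. S+P C4 ran from 83.0 CPM through 156 CPM to 329.8 CPM, and its highest pair, replicates 2 and 3, were those with few genes detected. S+P C7 samples held 114 CPM, 65.8 CPM, 318 CPM, 386 CPM and 319 CPM, the lowest in replicate 3. Sh2d1a shares 1465 exon bases with Tenm1 on the opposite strand, a gene with 1250 counts in all over 18 libraries, against 196669 counts of Sh2d1a.

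Pou2af1, the coactivator (chromosome 9, 51124984 to 51151380, plus strand), was low and was highest in the unsensitized groups. Naive samples held 8.15 CPM, 2.05 CPM and 2.57 CPM, N+P C1 samples 2.50 CPM, 5.54 CPM and 4.11 CPM, and N+P C5 samples 0.546 CPM, 7.95 CPM and 4.10 CPM. The unsensitized groups therefore overlapped fully. Sensitized replicate 4 held 5.27 CPM and the other 3 at most 0.0359 CPM. S+P C5 ran from 0 through a median of 0.886 CPM to 4.88 CPM, S+P C4 reached 0.795 CPM and S+P C7 0.325 CPM. The library S+P C7 replicate 3, with its B cell markers at 15420 CPM, had no count of Pou2af1 or Cxcr5.

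Sox4, the transcription factor (chromosome 13, 29132902 to 29137696, minus strand), was counted in Naive cells and in N+P C1, and in few other samples. Naive samples held 0.9465 CPM, 0.762 CPM and 3.48 CPM, and N+P C1 samples 5.51 CPM, 2.58 CPM and 4.11 CPM. N+P C5 samples held 0.0420 CPM, none and 0.528 CPM, below every Naive and N+P C1 sample. Sensitized replicate 3 reached 1.97 CPM and S+P C5 replicate 6 reached 1.57 CPM, and S+P C7 held 1 count in 5 samples. S+P C4 replicate 3, one of the samples with few genes, held 71.2 CPM, while the other 5 held at most 1 count.

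Ascl2 (chromosome 7, 142520564 to 142523006, minus strand) had 0 counts throughout, where the floor was worth 0.0539 to 0.298 CPM in a single sample. That floor covers counting error only and is not an upper limit on the level. For example, Il21 held 1271 counts in a library of N+P C5 replicate 2 and 0 in its pair.

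**Figure D1:**
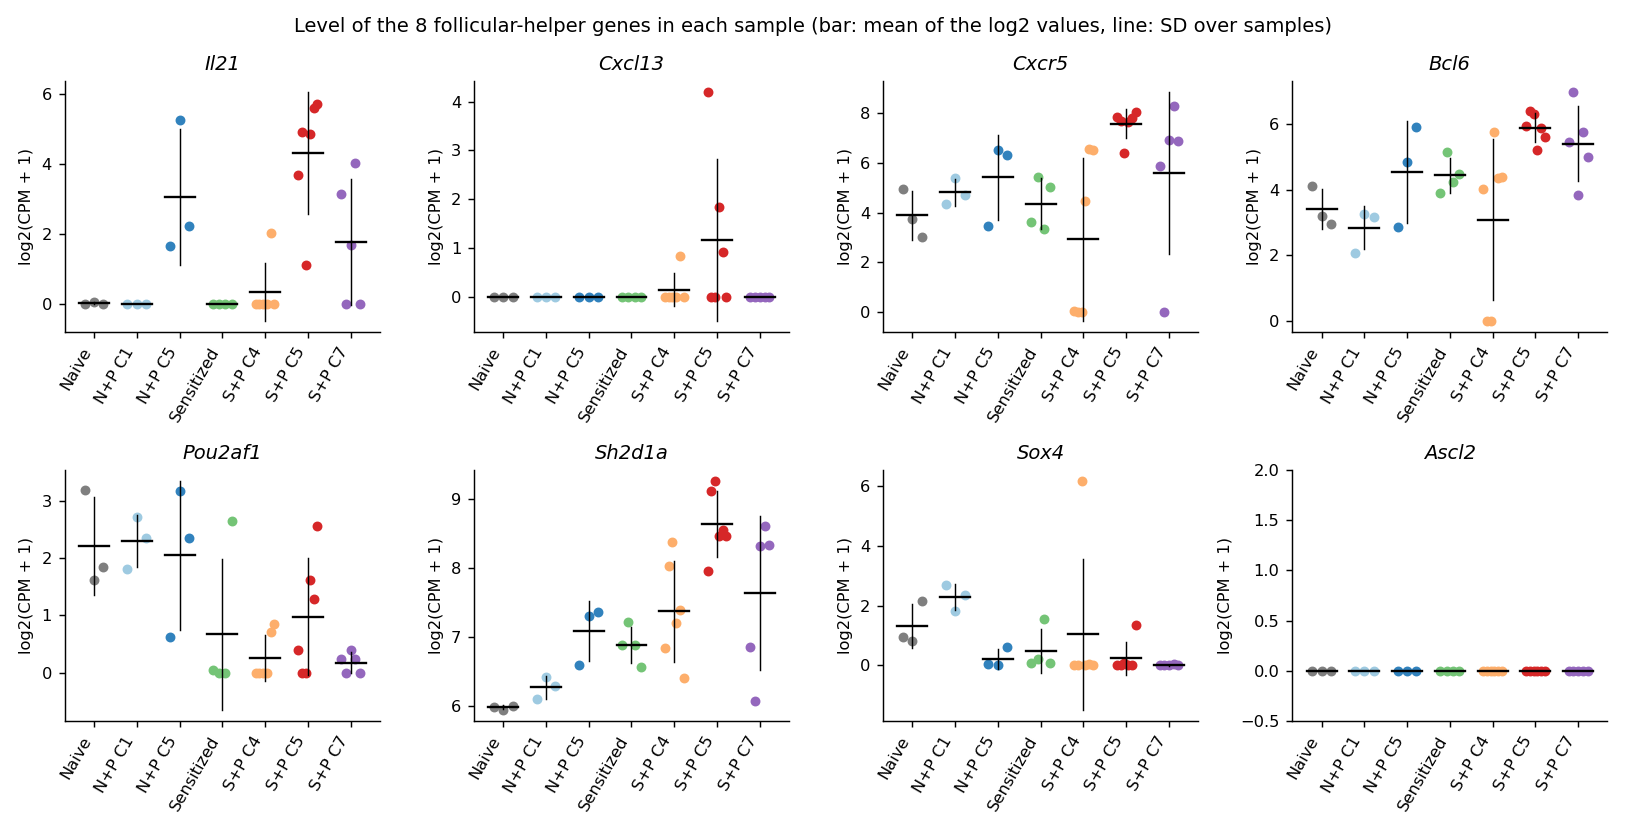
Level of each of the 8 members in the 30 samples, as log2(CPM + 1) on the vertical axis and by group on the horizontal axis. Points are samples, horizontal bars the group means of the log2 values and vertical lines 1 SD. Il21 is above 0 in all 9 PD1+CD73+ samples, Sh2d1a in all 30 samples, and Ascl2 in none.

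Levels of different genes were compared per kilobase of exon. In S+P C5 the mean was 70.6 CPM per kilobase for Sh2d1a and 59.2 for Cxcr5, followed by 9.03 for Bcl6, 5.32 for Il21, 2.99 for Cxcl13, 0.565 for Pou2af1 and 0.0563 for Sox4. In Sensitized cells the same quantity was 20.1 CPM per kilobase for Sh2d1a, 7.002 for Cxcr5 and 3.27 for Bcl6. Sh2d1a and Cxcr5 were thus the leading members in S+P C5, and Il21 stood at about the level of Bcl6 there while it was at 0 in Sensitized.

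Across all 7 groups, 2 of the 7 tested members differed at an adjusted p under 0.1 in edgeR's quasi-likelihood test: Sh2d1a (adjusted p = 0.0061) and Il21 (adjusted p = 0.0306). Over all genes 1.86% passed that threshold. Cxcl13 (0.112), Sox4 (0.148), Cxcr5 (0.416), Bcl6 (0.422) and Pou2af1 (0.633) had larger adjusted p-values. At an unadjusted p under 0.05 the share of all genes was 20.6%, and 4 of the 7 members met it. Leaving out the 3 samples with few genes raised the count to 4, adding Cxcr5 and Bcl6, where 3.93% of all genes passed.

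The comparison of sensitized mice after pregnancy with sensitized mice without one asks what pregnancy does to memory T_FGS. Sensitized cells were not split by PD-1 and CD73, so pregnancy and the choice of subset cannot be told apart in these comparisons, and the same holds for Naive against the N+P subsets. S+P mice were mated on day 30 or later after grafting, so time since the graft may also differ from that of Sensitized mice. In S+P C5 against Sensitized, Sh2d1a was 1.81 ± 0.45 higher on the log2 scale (SE; 414 against 118 CPM), Cxcr5 3.08 ± 1.52 (197 against 23.3 CPM) and Bcl6 1.47 ± 1.11 (60.5 against 21.9 CPM), and for all of these, as for Il21, the groups did not overlap. The share of all genes whose groups do not overlap is not given, so here and in the other comparisons a lack of overlap is a description only. The edgeR test called 0 of 7 members past both thresholds (an adjusted p below 0.1 together with a log2 fold change beyond 0.9 either way), which 0.0712% of all genes passed. The adjusted p was 0.205 for Sh2d1a, 0.248 for Il21, 0.276 for Cxcl13, 0.388 for Cxcr5 and 0.808 for Bcl6. At an unadjusted p under 0.05, 3 members were higher (Sh2d1a, p = 0.000307; Il21, p = 0.000512; Cxcl13, p = 0.0147), against 13.0% of all genes. DESeq2, which called 4.72% of the genes it tested, called those 3 members. Il21 and Cxcl13 had no count in Sensitized, so the size of their differences is not a measured one. Most Cxcl13 counts of S+P C5 came from replicate 1. Pou2af1 and Sox4 differed by 0.13 and -1.02 on the log2 scale with SEs of 1.96 and 2.14. The call depended on the 3 samples of few genes, which lie outside this comparison but enter the same fit. Without them edgeR called Sh2d1a (adjusted p = 0.0013) and Il21 (adjusted p = 0.0301), where 1.02% of all genes passed. The cause of that change was not tested.

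In S+P C7 against Sensitized, the PD1+CD73- cells showed a smaller difference for Sh2d1a, 1.02 ± 0.44 on the log2 scale (SE; 241 against 118 CPM), and groups that overlapped for Cxcr5 (2.36 ± 1.49) and Bcl6 (1.27 ± 1.13). The mean of Il21 (5.00 ± 6.46 CPM, SD, n = 5) was at least 53.7-fold above Sensitized, and 67.1-fold without replicate 3. Sox4 was lower, and the ratio of the Sensitized mean to the 1 count of S+P C7 was 97.3 (exact Poisson 95% interval 17.5 to 3842). Sensitized replicate 3 carried 65 of the 73 counts behind that mean, and without it the ratio was 14.9 (2.67 to 588). The other Sensitized samples held 2 or 3 counts each, so none lay above the floor, and that ratio compares levels at the floor. No member passed both thresholds in edgeR (0 of 7), where 0.0305% of all genes passed. With an unadjusted p under 0.05 there were 3 members (Il21 and Sh2d1a higher, Sox4 lower), against 10.2% of all genes, and DESeq2 called Il21 alone, with 3.42% of the genes it tested. Without S+P C7 replicate 3 the log2 difference was 1.27 for Sh2d1a, 2.69 for Cxcr5 and 0.68 for Bcl6, so that the Bcl6 value moved most. Without all 3 samples of few genes edgeR called Sh2d1a (adjusted p = 0.0966), where 0.348% of all genes passed.

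In S+P C4, the PD1- cells, Cxcr5 differed from Sensitized by 0.53 ± 1.35, Bcl6 by -0.28 ± 1.05 and Sh2d1a by 0.63 ± 0.42 on the log2 scale (SE). Without the 3 samples of few genes these values were 1.16 ± 0.91, 0.33 ± 0.56 and 0.14 ± 0.31, so that Bcl6 turned sign. The edgeR test called 0 of 7 members, where 0.00509% of all genes passed, and 1 member, Il21, met an unadjusted p under 0.05, against 12.7% of all genes. DESeq2 called Cxcl13 alone, with 4.56% of the genes it tested. Both values rest on replicate 5, the only sample of this group with a count of either gene. The median log2 fold change of all genes was -0.135 here, 0.108 in S+P C5 minus S+P C4 and 0.235 in S+P C7 minus S+P C4, and the members' values in these comparisons stand against those shifts.

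**Figure D2:**
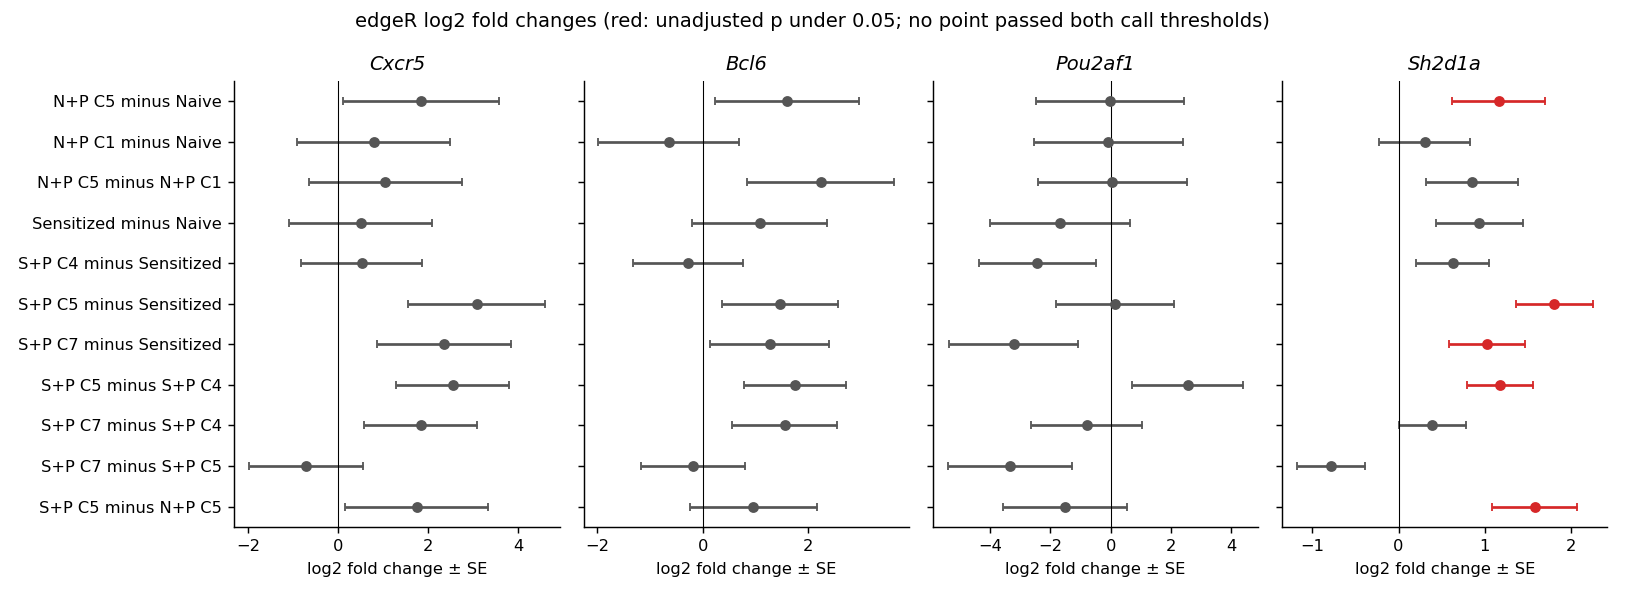
edgeR log2 fold changes with their SE (horizontal axis) of the 4 members counted in all groups, in 11 comparisons between groups (vertical axis). Red points had an unadjusted p under 0.05, and none of the points passed both thresholds. All 5 red points belong to Sh2d1a, the largest at 1.81 in S+P C5 minus Sensitized.

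The subsets of sensitized and pregnant mice were compared with each other. Between S+P C5 and S+P C4, Sh2d1a was 1.18 ± 0.38 higher (SE, log2 scale), Cxcr5 2.55 ± 1.26, Bcl6 1.75 ± 0.97 and Il21 5.76 ± 2.00, the last against a group in which 1 sample held all 90 counts. Of the 7 members edgeR called 0, where 0.0305% of all genes passed. An unadjusted p under 0.05 was met by 3 members (Sh2d1a and Il21 higher, Sox4 lower), against 13.3% of all genes. DESeq2 called Sh2d1a and Il21, with 4.49% of the genes it tested. Without the 3 samples of few genes the log2 difference was 1.94 for Cxcr5 and 1.16 for Bcl6. The Sox4 difference of -5.42 came from S+P C4 replicate 3 and was 4.71 without that sample, so no direction can be given. Without S+P C4 replicate 5 edgeR called Il21 (adjusted p = 0.0985, with 0.0616% of all genes), and without the 3 samples of few genes it called Sh2d1a (log2 difference 1.70, adjusted p = 0.0101, with 0.199% of all genes).

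In the PD1+ subsets without CD73 (S+P C7) and with it (S+P C5), Cxcl13 was at 0 in all 5 S+P C7 samples and in 3 of 6 S+P C5 samples. Sh2d1a was 0.78 ± 0.40 lower in S+P C7 (-0.54 without S+P C7 replicate 3), and Il21 differed by -2.48 ± 1.84. Cxcr5 and Bcl6 differed by -0.72 ± 1.26 and -0.19 ± 0.99, both within 1 SE of 0, and by -0.39 and -0.78 without S+P C7 replicate 3. The edgeR test called 0 of 7 members and 0% of all genes. At an unadjusted p under 0.05 in edgeR, 1 member, Cxcl13, passed (p = 0.00768), against 12.7% of all genes. DESeq2 called it too, with 2.79% of the genes it tested. Both rest mainly on S+P C5 replicate 1, with 797 of 918 counts, and S+P C7 had none. The size of that Cxcl13 difference is thus not a measured one. In S+P C7 minus S+P C4, edgeR called 0 of 7 members, where 0.00509% of all genes passed. The 1 member at an unadjusted p under 0.05 was Sox4, against 15.9% of all genes, and it again rested on S+P C4 replicate 3: the log2 difference was -10.3 with that sample and -0.23 without it. DESeq2 called Sox4 and Cxcl13 there, with 4.53% of the genes it tested. The Cxcl13 call rests on the 23 counts of S+P C4 replicate 5, the only sample of either group with a count. Sh2d1a differed by 0.39 ± 0.39 in S+P C7 minus S+P C4 (SE), and by 1.13 ± 0.31 without the 3 samples of few genes (adjusted p = 0.463 in edgeR).

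Subsets with the same replicate number were taken to come from the same mouse, as the column names imply, which allowed a look within mice. Il21 was higher in C5 than in C4 in 6 of 6 S+P mice, higher in C5 than in C7 in 5 of 5, and higher in C5 than in C1 in 3 of 3 N+P mice. Cxcr5 and Sh2d1a were each higher in S+P C5 than in S+P C4 in 6 of 6 mice, and higher than in S+P C7 in 4 of 5. Bcl6 was higher in S+P C5 than in S+P C4 in 5 of 6 mice. In N+P mice Sh2d1a and Bcl6 were higher in C5 than in C1 in 3 of 3, Cxcr5 in 2 of 3, and Sox4 was lower in 3 of 3. When replicate numbers entered the fit to all 7 groups as a block, an alternative added after seeing the data, edgeR called 0 members in each of these 4 comparisons of subsets, as without the block.

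**Figure D3:**
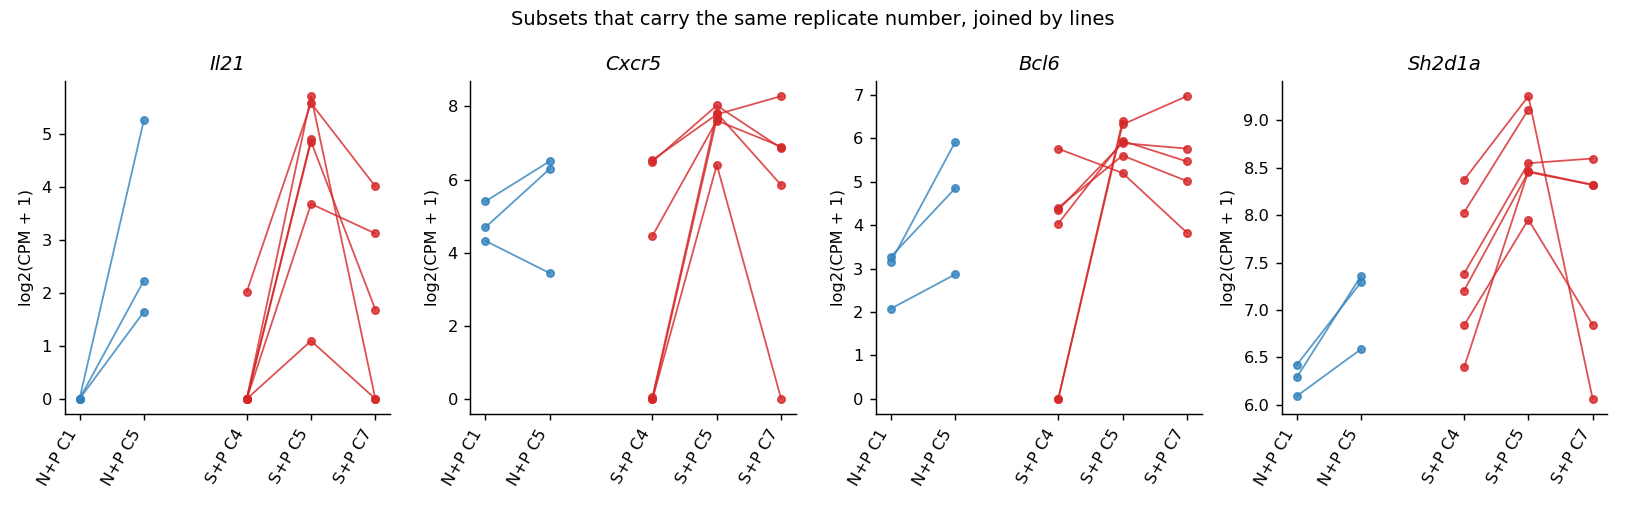
log2(CPM + 1) of Il21, Cxcr5, Bcl6 and Sh2d1a (vertical axis) in the sorted subsets (horizontal axis), with lines joining samples of the same replicate number. N+P mice are blue (3) and S+P mice red (6, of which 5 have a C7 sample). Il21 and Sh2d1a are higher in C5 than in C4 along all 6 red lines, which include the 3 samples of few genes.

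The comparison of the N+P groups with Naive asks what pregnancy does to T_FGS without memory. In N+P C5 against Naive, Sh2d1a was 1.16 ± 0.53 higher on the log2 scale (SE; 138 against 61.8 CPM) and the groups did not overlap. Cxcr5 and Bcl6 differed by 1.84 ± 1.73 and 1.59 ± 1.36, and Pou2af1 by -0.02 ± 2.47, with overlap in each. Both thresholds were passed by 0 of 7 members in edgeR, where 0.0407% of all genes passed. At an unadjusted p under 0.05, 2 members were higher (Il21, p = 0.00786; Sh2d1a, p = 0.0375), against 5.34% of all genes, and DESeq2 called Il21, with 4.42% of the genes it tested. In N+P C1, the PD1- cells, edgeR called 0 of 7 members and 0% of all genes against Naive, 0 members met an unadjusted p under 0.05, against 3.25% of all genes, and DESeq2 called 0 members and 2.98% of the genes it tested. In N+P C5 minus N+P C1, edgeR called 0 of 7 members, where 0.00509% of all genes passed, and Il21 alone met an unadjusted p under 0.05, against 4.34% of all genes. DESeq2 called Il21 there, with 2.97% of the genes it tested.

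Memory itself, in Sensitized against Naive, showed no called member. Sh2d1a differed by 0.94 ± 0.51 on the log2 scale (SE) with groups that did not overlap, Bcl6 by 1.08 ± 1.28 and Cxcr5 by 0.51 ± 1.59. The edgeR test called 0 of 7 members, where 0.153% of all genes passed, 0 members met an unadjusted p under 0.05, against 7.85% of all genes, and DESeq2 called 0 members and 4.94% of the genes it tested.

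The PD1+CD73+ cells of both kinds of mice were also set against each other. In S+P C5 against N+P C5, Sh2d1a was 1.58 ± 0.49 higher on the log2 scale (SE; 414 against 138 CPM), without overlap, and Cxcr5 and Bcl6 differed by 1.75 ± 1.58 and 0.96 ± 1.20. Il21 differed by 0.97 ± 2.08 with overlapping samples. The edgeR test called 0 of 7 members and 0% of all genes. At an unadjusted p under 0.05 in edgeR, Sh2d1a (p = 0.00305) and Cxcl13 (p = 0.0297) were higher, against 5.90% of all genes. DESeq2 called both, with 2.11% of the genes it tested. For Cxcl13 both results rest mainly on S+P C5 replicate 1, against no count in N+P C5. Without the 3 samples of few genes edgeR called Sh2d1a (adjusted p = 0.0726), with 0.0818% of all genes. Whether the change from Sensitized to S+P C5 differed from the change from Naive to N+P C5 was tested as an interaction. It was 0.65 ± 0.67 for Sh2d1a, 1.24 ± 2.16 for Cxcr5 and -0.13 ± 1.69 for Bcl6 on the log2 scale (SE), and edgeR called 0 of 7 members, where 0.0254% of all genes passed. No member met an unadjusted p under 0.05 (0 of 7, against 6.43% of all genes), and DESeq2 called Cxcl13, with 4.38% of the genes it tested. Cxcl13 had no count in Sensitized, N+P C5 and Naive, so the size of that difference is not a measured one.

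The paired libraries of a sample, each from 200 cells, gave a measure of technical spread in 23 samples. Sh2d1a and Bcl6 were above the floor in both libraries of all 23 pairs, with a median fold between the libraries of 1.305 for Sh2d1a (highest 2.41) and 2.39 for Bcl6 (highest 6.49). Cxcr5 was above the floor in both libraries of 20 pairs and in 1 library of 3 pairs, and differed by up to 38.9-fold. Il21 was above the floor in both libraries of 7 pairs, in 1 of 4 pairs and in neither of 12, and differed by up to 24.3-fold. In N+P C5 each mouse had Il21 above the floor in 1 library only, as in replicate 2, where 1271 counts stood against 0. Pou2af1 was in both libraries of 6 pairs and in 1 of 12 pairs. Il21 and Pou2af1, which spread widely between mice, thus also came and went between libraries of the same mouse.

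**Figure D4:**
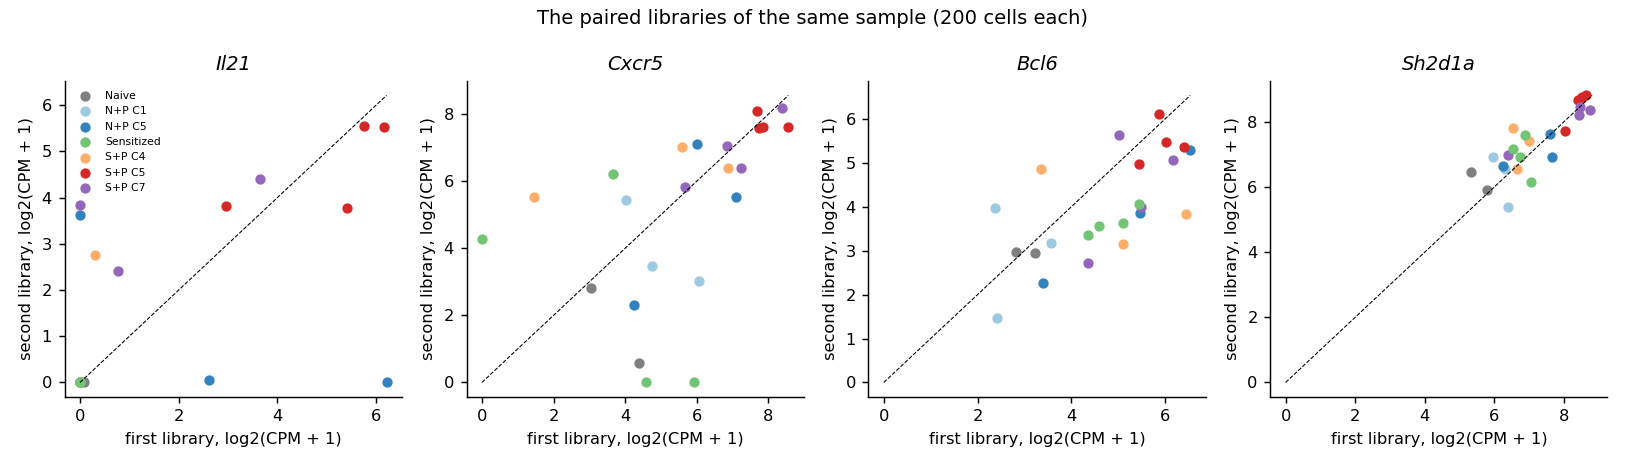
log2(CPM + 1) of Il21, Cxcr5, Bcl6 and Sh2d1a in the first (horizontal axis) and second (vertical axis) library of the 23 samples with a pair of libraries. Colours are the groups and the dashed line marks equal levels. The 3 N+P C5 points of Il21 lie on or beside an axis, while Sh2d1a points stay near the line.

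The other genes of the Tfh program were taken from lists of genes raised in Tfh (22 genes, 21 tested) and of genes that oppose Tfh or are lowered in them (14 genes, all tested). In S+P C5 against Sensitized, edgeR called 0 of 21 raised genes, where 0.0712% of all genes passed, 8 were higher and 1 lower at an unadjusted p under 0.05, against 13.0% of all genes in either direction, and the list median was a log2 difference of 1.81, where the median of all genes was -0.00502. Slamf6, a SLAM family receptor that signals through SAP, stood at 1253 against 265 CPM (log2 difference 2.24 ± 0.53, SE, adjusted p = 0.176 in edgeR). Sostdc1, a secreted antagonist of BMP and Wnt signals that marks a Tfh subset, stood at 102 CPM against 1 count in 4 Sensitized samples. Without the 3 samples of few genes edgeR called 8 of the raised genes (Icos, Pdcd1, Slamf6, Lef1, Maf, Irf4, Sostdc1 and Cd200), where 1.02% of all genes passed, and DESeq2 on all samples called 6, where it called 4.72% of the genes it tested. Pdcd1, whose direction the sort set, is among the 8 called and among the 8 higher at the unadjusted p. Lef1, a transcription factor that favours Tfh, was the one with a lower mean in S+P C5 (51.3 against 155 CPM).

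Of the 14 opposing genes, edgeR called 1 lower in S+P C5 against Sensitized, where 0.0712% of all genes passed. This was Il7r, the interleukin-7 receptor, with 229.9 against 1113 CPM (log2 difference -2.28 ± 0.45, SE, adjusted p = 0.0447 in edgeR). Naive cells also held Il7r at a mean of 814 CPM. A further 5 were lower at an unadjusted p under 0.05, among them S1pr1, which guides exit from lymphoid tissue (239.8 against 694 CPM, -1.53 ± 0.35, adjusted p = 0.151), and the list median was -0.83. Without the 3 samples of few genes edgeR called 4 (S1pr1, Selplg, Ccr7 and Il7r) and 1.02% of all genes, and DESeq2 on all samples called 2 and 4.72% of the genes it tested. Il7r was also called lower in S+P C7 against Sensitized (95.3 against 1113 CPM, -3.55 ± 0.50, adjusted p = 0.00108), with 0.0305% of all genes. Slamf6 was called higher in S+P C5 than in S+P C4 (1253 against 255 CPM, 2.30 ± 0.46, adjusted p = 0.0601), with 0.0305% of all genes. It was among 2 raised genes called there without the 3 samples of few genes, with 0.199% of all genes, and 4 called by DESeq2, with 4.49% of the genes it tested. In Sensitized against Naive, edgeR called Id2 (1178 against 214 CPM, 2.46 ± 0.40, adjusted p = 0.0022) and Il2rb (451 against 147 CPM, 1.62 ± 0.37, adjusted p = 0.0907) higher, a repressor of Tfh differentiation and a receptor chain for interleukin-2 and interleukin-15, with 0.153% of all genes.

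In N+P C5 against Naive, edgeR called none of either list (0 of 21 and 0 of 14), where 0.0407% of all genes passed. At an unadjusted p under 0.05 there were 5 raised genes, Pdcd1 included, and 3 opposing genes, all higher, against 5.34% of all genes in either direction. The 4 with the smallest unadjusted p were Pdcd1, which the sort used, Cd200, a surface protein of Tfh (230.4 against 2.41 CPM, 6.57 ± 1.87, adjusted p = 0.579), Il2rb (374 against 147 CPM, 1.35 ± 0.39) and Id2 (516 against 214 CPM, 1.27 ± 0.39). In S+P C7 against S+P C5 the 4 were Tcf7, a transcription factor that favours Tfh and memory fates (210.5 against 495 CPM, -1.23 ± 0.35), Id2 (1291 against 654 CPM, 0.98 ± 0.29), Slamf6 (429 against 1253 CPM, -1.55 ± 0.47) and Il7r (95.3 against 229.9 CPM, -1.27 ± 0.44), each with an adjusted p of 0.277 in edgeR.

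**Figure D5:**
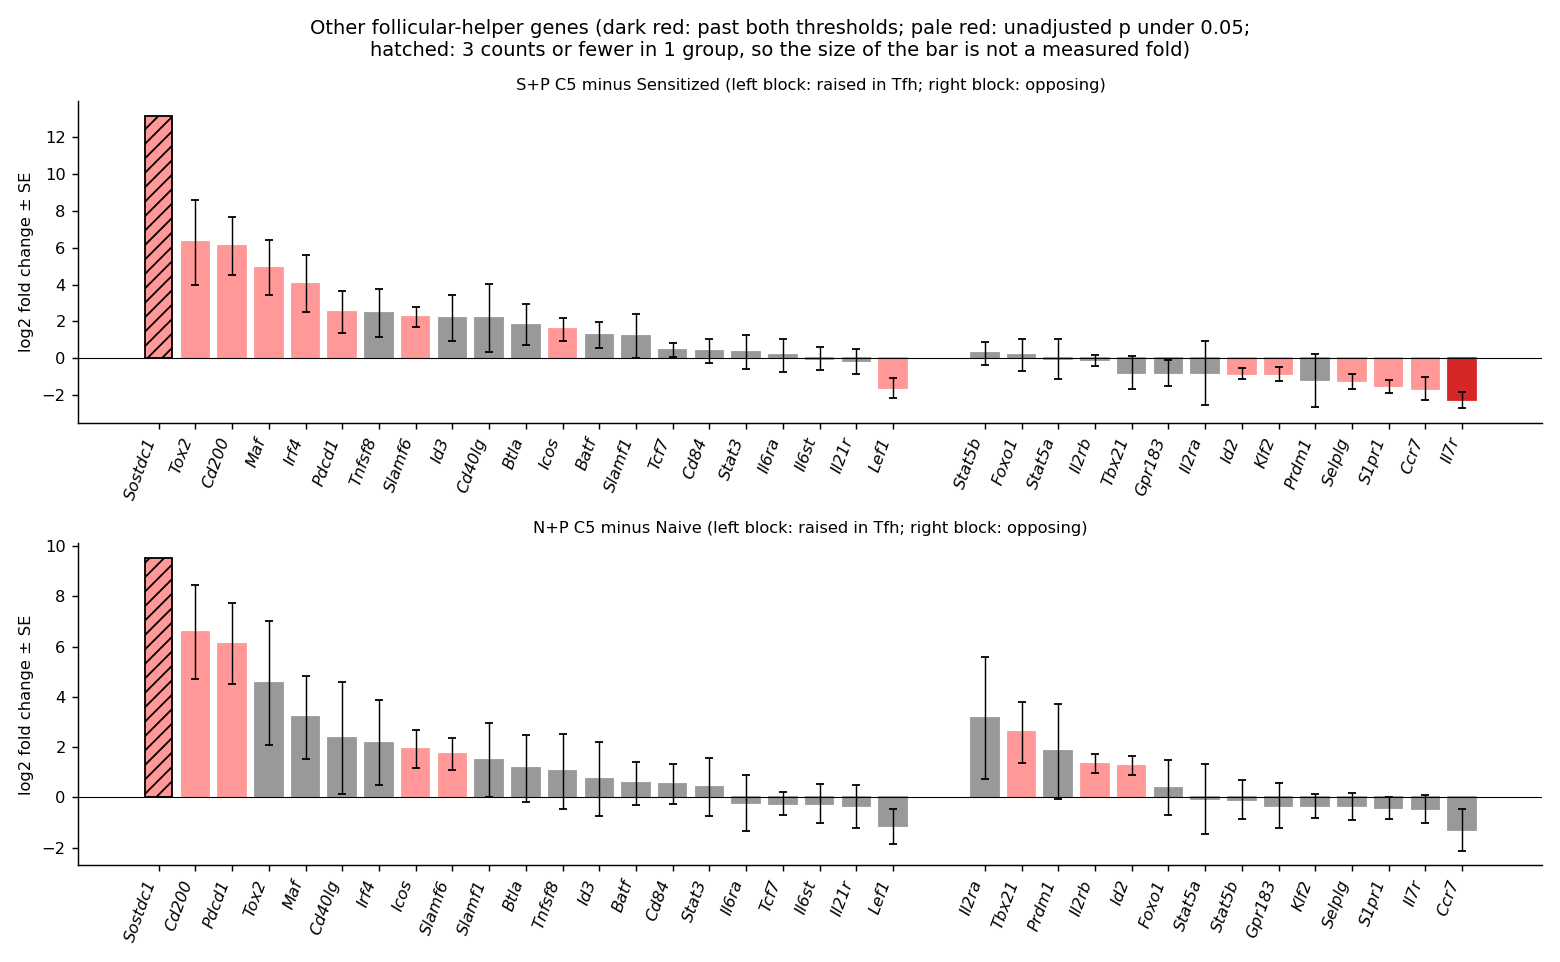
edgeR log2 fold changes with their SE (vertical axis) of 21 other genes raised in Tfh and 14 that oppose them (horizontal axis), in S+P C5 minus Sensitized (top) and N+P C5 minus Naive (bottom). Dark red bars passed both thresholds, which only Il7r did, pale red bars had an unadjusted p under 0.05, and hatched bars have 3 counts or fewer in 1 group. In the top panel 8 of the raised genes and 0 of the opposing genes are higher at that unadjusted p.

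The genes whose levels most resembled each member over the 30 samples were found by Pearson's r of log2 CPM among 19659 genes, as a description over samples that share groups and depth. Il21 was nearest to the long noncoding RNA Gm34093 (r = 0.912), followed by Mmp10 and Fhip1a. Cxcr5 was nearest to Id3 (r = 0.947), which encodes an inhibitor of E proteins, then to Nsdhl and Cd9, and Id3 is also in the list of genes raised in Tfh. Bcl6 was nearest to Ssh1 (r = 0.937), Fhl3 and Inpp4a, and Sh2d1a to 2310001H17Rik (r = 0.808), Bcl2a1b and Nlrc5. Cxcl13 was nearest to Clip3 (r = 0.853), Cyp2c23 and Gm11365, Sox4 to Eeig1 (r = 0.844), Hotairm1 and Gm35585, and Pou2af1 to Gm22334 (r = 0.814), 4930549C15Rik and Acvr1b. Among the members themselves the highest r were 0.622 between Cxcr5 and Bcl6, 0.611 between Il21 and Sh2d1a and 0.593 between Il21 and Cxcr5, and the lowest was -0.503 between Bcl6 and Sox4.

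Markers of other cells moved with the groups in part. The 4 CD4 T cell markers summed to 11.3 to 50.4 CPM in N+P C5 and 5.29 to 25.1 CPM in S+P C5, against 2.35 to 8.60 CPM in Naive and 4.82 to 37.3 CPM in Sensitized. Cd40lg, also a gene of activated T cells, led this sum in N+P C5 (mean 23.2 CPM) and S+P C5 (13.6 CPM), and Zbtb7b, the factor of the CD4 lineage, led it in Sensitized (10.9 CPM). Cd4 itself had no count in the N+P C5 and S+P C5 samples, and 1 S+P C7 sample, replicate 4, held both Cd4 (1.63 CPM) and Il21 (2.21 CPM). S+P C4 replicate 4 held Cd4 (3.71 CPM) and no Il21. The part of CD4 T cells in the Il21 levels was not tested. The 13 B cell markers summed to 228 to 483 CPM in S+P C5 and 229 to 397 CPM in Sensitized, mostly as Ighm, and Ms4a1 and Pax5 were at 0 in both. Cd22 of that list stood at 145 CPM in S+P C5 against 19.9 CPM in Sensitized, without overlap. The 7 myeloid markers summed to 106 to 250.7 CPM in S+P C5 and 118.6 to 485.5 CPM in Sensitized, with overlap. By mean, Cd68 of that list was higher in S+P C5 (54.7 against 9.35 CPM). Itgax (11.9 against 50.5 CPM) and Lyz2 (0 against 85.3 CPM) were lower, and the remaining genes of the list were higher. In Naive the B cell markers summed to 682 to 1387 CPM, a group in which Pou2af1 was among the highest, and the part of B cell or myeloid RNA in the members' levels was not tested. NK cell markers summed to 53.3 to 126 CPM in Sensitized and 0 to 62.2 CPM in S+P C5, and their part was not tested.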

How the data were processed

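RNA of 200 sorted OVA:Kb-binding CD8+ T cells per library was sequenced in a single run by the authors. Per the labels and the study's methods, reads were trimmed (cutadapt 3.4), aligned to GRCm39 (STAR 2.6.1b) and counted per gene without multi-mapping reads (featureCounts 2.0.1). The annotation release and strand setting are not given in the sources used here. The authors deposited raw counts for 56 libraries and 55359 genes, of which 54749 were matched to GENCODE M39 names.

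From these counts, libraries of a replicate were summed to 30 samples, after an identical column was dropped and a nearly identical pair averaged. A single edgeR 4.0.16 quasi-likelihood fit (R 4.3.3, TMM, minimum count 10, 7 groups) covered 19659 genes. Genes were called at a Benjamini-Hochberg adjusted p under 0.1 with an absolute log2 fold change above 0.9. p-values measure the spread between summed samples, estimated over the 7 groups together. Subsets taken as the same mouse entered that fit as independent samples. CPM averages used the TMM library sizes. The fit was also run on simulated data, whose outcome is not given here, so its power at the spread of these data is not stated. DESeq2 1.42.0, other scaling, filters, column handling, left-out replicates and a replicate block were alternatives.

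Subsets with the same number were taken as one mouse from the column names. Their deviations correlated at a mean of 0.0473 (N+P C1 with C5), 0.109 (S+P C4 with C5), 0.174 (S+P C4 with C7) and 0.116 (S+P C5 with C7), against -0.024 to -0.0174 for different numbers. Named genes were the members, every listed Tfh gene past both thresholds, the 4 listed genes with the smallest unadjusted p in 3 comparisons, and the 3 genes most correlated with each member. Members, lists and tests were chosen with earlier results of these data known. The counts of listed Tfh genes without the 3 samples of few genes and by DESeq2, the block in the fit to all 7 groups, the S+P C4 minus Sensitized values without those samples, the bounds and ratios of Il21, Cxcl13 and Sox4 without a named replicate, and the naming of Lef1 and of the genes those settings call, were added after seeing the data.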

Additional observations from a re-analysis of the deposited data

Results flagged for a closer look

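In 9 of 25 sets of a member in a group of 4 to 6 samples, 1 sample lay farther from the rest than Dixon's 95% limit for that group size. Chance flags about 1 in 20 groups, and sets in which all other samples are at 0 are flagged by any single value.

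S+P C4 replicate 5 held 3.05 CPM of Il21 and 0.779 CPM of Cxcl13, while the other 5 samples of that group had no count of either gene. S+P C5 replicate 1 held 17.2 CPM of Cxcl13, where the others held 0 to 2.57 CPM. S+P C5 replicate 3 was the lowest of its group for Cxcr5 with 83.6 CPM, where the others held 194.8 to 259.6 CPM, and it was also the lowest for Il21.

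Sensitized replicate 4 held 5.27 CPM of Pou2af1, where the others held at most 0.0359 CPM. Sox4 stood apart in a sample of each of 4 groups. It reached 1.97 CPM in Sensitized replicate 3, where the others held 0.0519 to 0.15 CPM, and 71.2 CPM in S+P C4 replicate 3, where the others held at most 0.0339 CPM. It reached 1.57 CPM in S+P C5 replicate 6, where the others held at most 0.0495 CPM, and 0.0259 CPM, a single count, in S+P C7 replicate 5.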

How the results depend on the processing

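The main edgeR fit called 0 of 7 members in each comparison and 2 in the test of any difference. DESeq2 called 1 in N+P C5 minus Naive, N+P C5 minus N+P C1, S+P C4 minus Sensitized, S+P C7 minus Sensitized, S+P C7 minus S+P C5 and the interaction, 3 in S+P C5 minus Sensitized, and 2 in S+P C5 minus S+P C4, S+P C7 minus S+P C4 and S+P C5 minus N+P C5. With technical columns as separate samples, which treats libraries of a mouse as replicates, edgeR called 4 in S+P C5 minus Sensitized, 2 in S+P C7 minus Sensitized and S+P C5 minus S+P C4, 1 in S+P C4 minus Sensitized, S+P C7 minus S+P C4, S+P C5 minus N+P C5 and S+P C7 minus S+P C5, and 6 in the test of any difference. Without the 3 samples of few genes it called 2 in S+P C5 minus Sensitized, 1 in S+P C7 minus Sensitized, S+P C5 minus S+P C4 and S+P C5 minus N+P C5, and 4 in the test of any difference. A fit to the compared groups only called 3 in S+P C5 minus Sensitized, and no filter on low counts gave 4 in the test of any difference. Leaving out 1 replicate gave 0 to 1 in S+P C5 minus S+P C4 (1 without S+P C4 replicate 5), 0 in the other comparisons and 2 in the test of any difference. The cause of these changes was not tested.

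A replicate block in the fit to all 7 groups gave 0 called members in the 4 comparisons of subsets and 2 in the test of any difference, as without it. The planned replicate block in fits to the compared groups only called 0 in all 12 comparisons. In S+P C5 minus Sensitized, where the same number does not mark the same mouse, that fit called 3 without the block and 0 with it. Over all genes, the count called in S+P C5 minus Sensitized was 14 in the main fit, 1005 by DESeq2, 199 without the 3 samples, 1137 with separate columns and 142 in the compared groups only. For any difference it was 365, against 478 by DESeq2, 17000 without a filter, 768 without the 3 samples, 3067 with separate columns and 139 with the block. Sox4 in S+P C5 minus S+P C4 reversed to 4.71 without S+P C4 replicate 3 and to 4.54 without the 3 samples, with a range of -9.97 to 4.71 over left-out replicates. Bcl6 in S+P C7 minus S+P C5 reversed to 0.044 without S+P C7 replicate 4, with a range of -0.78 to 0.044. In S+P C5 minus Sensitized, 22 alternatives kept the log2 difference of Sh2d1a between 1.64 and 1.93, of Cxcr5 between 2.83 and 3.52 and of Bcl6 between 1.31 and 1.78. Bcl6 in S+P C4 minus Sensitized reversed to 0.33 without the 3 samples. At this depth a member with no count in a sample is not shown to be absent there.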
